A study of Mus musculus with 6 samples.

Results

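The expression of 9 genes that link 2 chemokines, the regulatory T cell and interleukin-10 was compared between control (WT) and Dnmt3a KO ectopic lesions. The genes were chosen by name from the deposited table of 56884 genes and comprised the chemokines Ccl17 and Ccl22, the chemokine receptors Ccr4 and Ccr8, the regulatory T-cell genes Foxp3, Il2ra and Ikzf2, and the cytokine Il10 with its receptor chain Il10ra. WT lesions came from Dnmt3a f/f donor females and KO lesions from Dnmt3a f/f:PR-Cre/+ donor females, 3 lesions of each, so both groups carried the floxed allele and only the KO donors carried Cre, which is expressed in cells with the progesterone receptor. According to the methods, donors and syngeneic C57BL/6J recipients were 8 weeks old, recipients carried a pellet of 0.36 mg 17β-estradiol, donors had received estradiol as well, and 1 endometrial fragment was sutured to the mesenteric membrane and collected on day 21. The labels instead describe injection of uterine fragments into the peritoneal cavity and give 4 weeks. Per the labels all recipients were wild type, so a cell that entered the lesion from the host was not deleted for Dnmt3a.

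CCL17 and CCL22 are secreted mainly by dendritic cells and macrophages and are the ligands of CCR4, a receptor carried by regulatory and type 2 helper T cells. Regulatory T cells are defined by the transcription factor FOXP3, carry the high-affinity interleukin-2 receptor chain encoded by Il2ra, often express Helios (Ikzf2), and in tissues frequently carry CCR8. Interleukin-10, made by regulatory T cells, macrophages and other leukocytes, restrains inflammatory cytokine production through a receptor of IL10RA and IL10RB that signals to STAT3, and regulatory T cells have been described in endometriotic lesions and peritoneal fluid.

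Ccl22 and Ccl17 lie close together on chromosome 8 of the mouse, and the 300 bases around the start of each gene (250 before and 50 after it) are shown because both ligands were lower in KO lesions. The sequences are RefSeq's on GRCm38.p6, both on the plus strand, at chr8:94745434-94745733 for Ccl22 and chr8:94810203-94810502 for Ccl17. Capitals mark matches, on either strand, to 4 searched patterns: TTCNNNGAA and TTCNNNNGAA (STAT-type), TGANTCA (AP-1-type) and GGGANNNNCC (NF-κB-type).
Ccl22: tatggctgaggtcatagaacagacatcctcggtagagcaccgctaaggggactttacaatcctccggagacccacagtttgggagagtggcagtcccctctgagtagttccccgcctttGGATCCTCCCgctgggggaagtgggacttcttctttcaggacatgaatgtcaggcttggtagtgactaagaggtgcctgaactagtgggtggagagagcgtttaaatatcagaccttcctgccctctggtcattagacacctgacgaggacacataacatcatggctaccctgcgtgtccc
Ccl17: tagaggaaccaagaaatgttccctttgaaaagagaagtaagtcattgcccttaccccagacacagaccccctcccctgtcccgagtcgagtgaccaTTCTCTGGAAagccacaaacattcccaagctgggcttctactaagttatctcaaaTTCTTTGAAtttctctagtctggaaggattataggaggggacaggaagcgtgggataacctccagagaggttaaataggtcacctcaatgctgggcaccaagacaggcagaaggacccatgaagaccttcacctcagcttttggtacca
The Ccl17 window held 1 match to each STAT-type pattern, at 154 and 99 bases before the start, and the Ccl22 window held 1 match to the NF-κB-type pattern, at 131 bases before the start. Of all 32851 promoter windows, 8.3% held TTCNNNGAA, 6.95% held TTCNNNNGAA, 7.81% held TGANTCA and 20.7% held GGGANNNNCC. These matches describe letters in a window and no binding was measured here. Windows were found for 6 of the 9 genes and not for Ikzf2, Il10 and Il10ra.

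Each library came from 1 whole lesion and held 45370342 to 57239184 counts, the median being 49265709 in WT and 47982125 in KO. Of the values from 1 to 100 counts, 87.2% to 88.6% per library were even numbers, so the number of independent fragments behind a low count may be smaller than the count. Dnmt3a was at 52.7, 43.9 and 51.7 CPM (counts scaled to a common library size, with TMM factors) in WT and at 30.4, 33.5 and 36.2 CPM in KO lesions, a log2 fold change of -0.57 ± 0.14 (SE, adjusted p = 0.321, edgeR's quasi-likelihood test). WT replicate 2 stood apart with 9706 CPM summed over 6 neutrophil markers, against 30.3 to 472 CPM in the other lesions, and 80.0 CPM over 6 B-cell markers, against 7.39 to 15.1. WT replicates 1 and 3 stood apart with 27720 and 27430 CPM summed over 8 skeletal muscle markers, against 3.74 to 14.8 in the other lesions. KO replicate 3 had the highest sum over 4 adipocyte markers, 1632 CPM against 198 to 866 in the other lesions. Markers of the labelled tissue were present in every lesion, at 1449 to 2862 CPM summed over 7 epithelial markers and 667 to 882 CPM over 6 stromal markers, although the gland factor Foxa2 among them was at 0 in KO replicate 3. Results that rest on WT replicate 2 or on other single lesions are given with and without them.

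**Figure D1:**
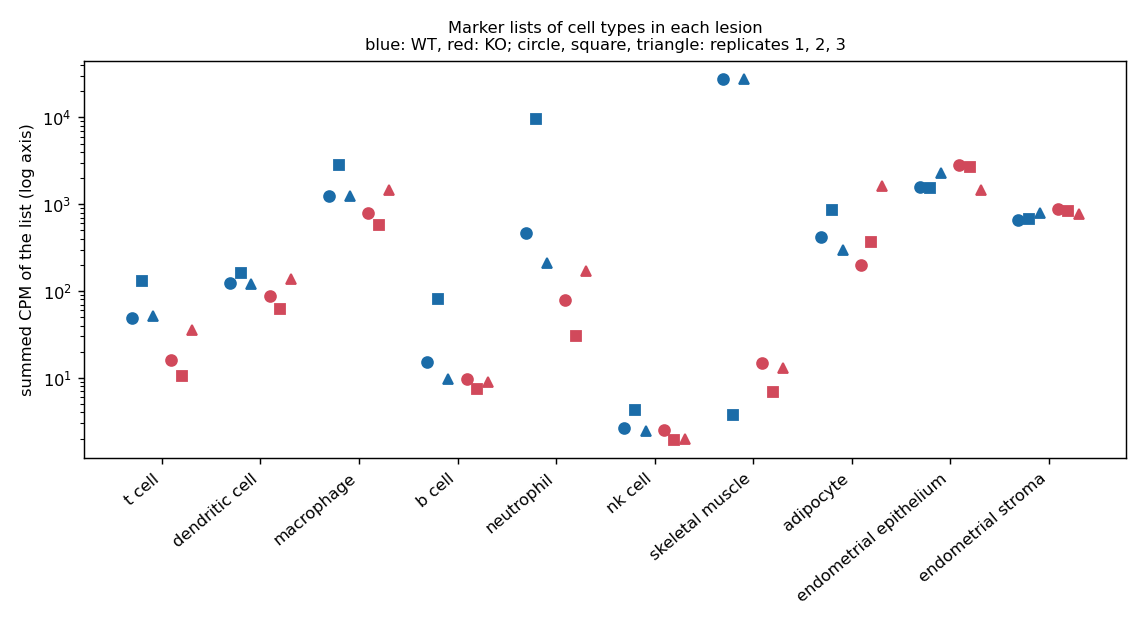
Summed CPM (log axis) of 10 lists of cell-type markers in each lesion, WT in blue and KO in red, with symbols for replicates 1 to 3. WT replicate 2 had the highest neutrophil sum at 9706 CPM, WT replicates 1 and 3 had the skeletal muscle sums of 27720 and 27430 CPM, and the lowest WT T-cell sum, 49.1 CPM, exceeded the highest KO sum, 35.4 CPM.

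Ccl17, Ccl22, Ccr4, Foxp3, Il2ra and Il10 were lower in KO lesions at the threshold the study used for its differential genes, a log2 fold change beyond 1 in either direction at an unadjusted p-value below 0.05. These are 6 of the 8 genes that could be tested, where 5.85% of all 18177 tested genes were called lower. Il10ra was lower in the mean without reaching the threshold, Ikzf2 was at the same mean level in both groups, and Ccr8 had too few counts to enter the test. None of the 9 was called higher, where 3.1% of all tested genes were. With Benjamini-Hochberg adjustment over all genes, adjusted p-values of the 8 ran from 0.321 to 0.888 in edgeR's test, so 0 fell below 0.05, where 0.0055% of all tested genes did. Under DESeq2's Wald test 8 of the 9 genes were lower past the threshold, where 6.17% of all genes were, and Ccl22 (adjusted p = 0.0184) and Il10 (adjusted p = 0.0339) were below 0.05 after adjustment, where 3.9% of all genes with an adjusted p-value were lower at that level. The filter on low counts was met by all 3 WT but only 1 KO lesion for Ccl17 and Foxp3 and by 2 KO lesions for Ccr4, so these genes entered the test through the WT lesions.

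The count of 6 depended on single lesions. It was 2 without WT replicate 2 (Ccl17 and Ccl22), where 5.86% of all tested genes were called lower, and 2 without KO replicate 1 (the same genes), where 2.9% were. It was 2 without KO replicate 2 (Ccl22 and Ccr4), where 3.48% were called, and 3 without WT replicate 1 (Ccl22, Il10 and Il10ra), where 5.99% were. Without WT replicate 3 it was 8, with 6.24% of all genes called, and without KO replicate 3 it was 5, with 8.66% called. Ccl22 was past the threshold with any single lesion left out, and no other member was. The lowest WT value exceeded the highest KO value for 5 of the 8 tested genes, where 8.74% of all tested genes showed this, and for the untested Ccr8 as well.

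**Figure D2:**
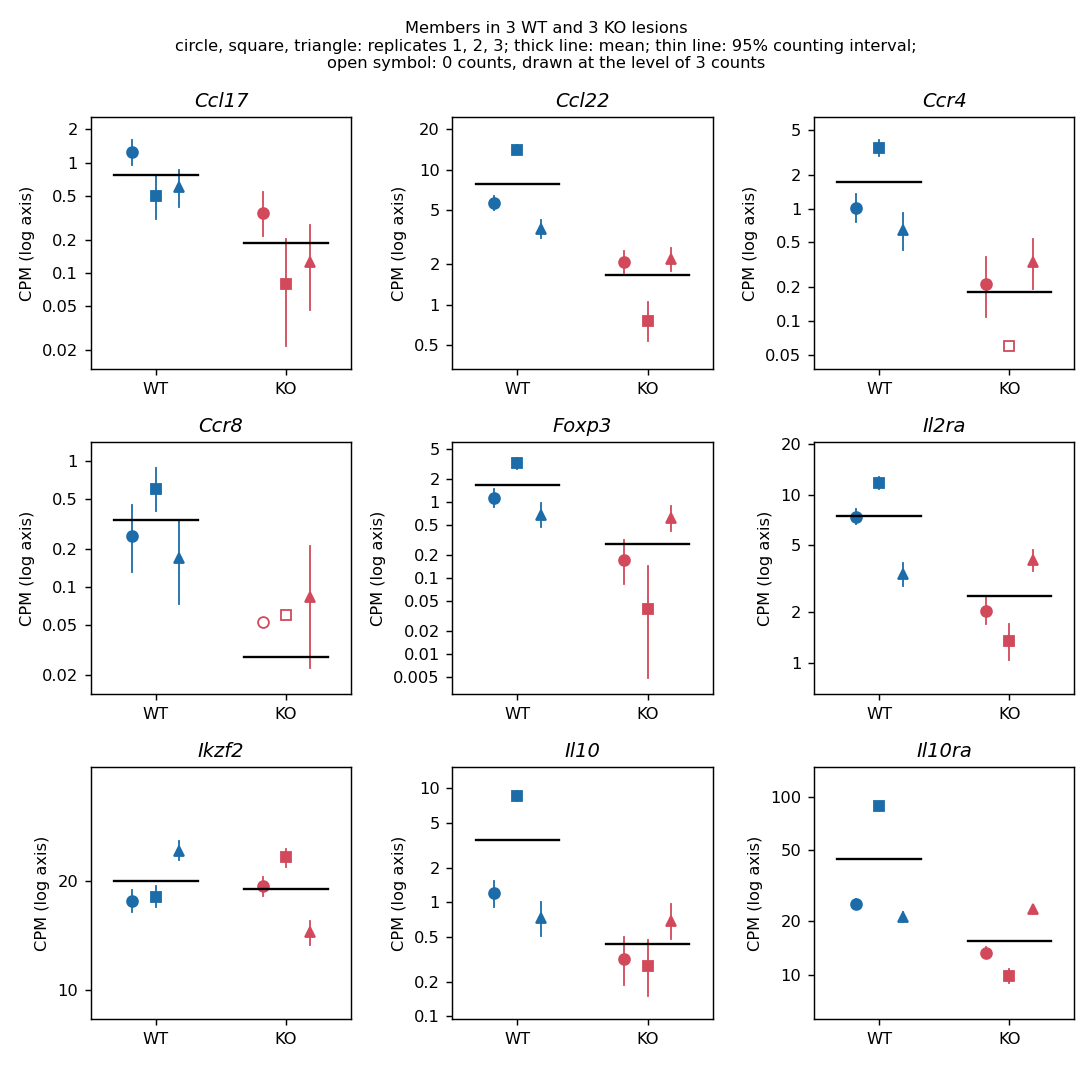
CPM (log axis) of each gene in 3 WT (blue) and 3 KO (red) lesions, with the mean as a thick line and the 95% exact counting interval of each library as a thin line, open symbols standing for 0 counts, drawn at the level of 3 counts. WT replicate 2 was the highest lesion for 7 of the 9 genes, and KO replicate 3 came within counting error of WT replicate 3 for Foxp3 and Il10.

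The ligand Ccl17 was measured at 1.24, 0.495 and 0.598 CPM in WT replicates 1, 2 and 3 and at 0.351, 0.0795 and 0.125 CPM in KO replicates 1, 2 and 3. The groups did not overlap, and WT replicate 2, which led most of the other genes, was the lowest WT lesion here. The 95% exact counting intervals of WT replicates 2 and 3 (0.31 to 0.75 and 0.397 to 0.864 CPM) overlapped with that of KO replicate 1 (0.214 to 0.542 CPM). The means were 0.777 ± 0.403 CPM in WT and 0.185 ± 0.145 CPM in KO (SD, n = 3 each), and the fitted KO level was 4.12-fold lower. This is a log2 fold change of -2.04 ± 0.68 (SE, unadjusted p = 0.0245, adjusted p = 0.328, edgeR). These values rest on 22 to 58 counts in WT and 4 to 20 in KO libraries. Without WT replicate 1, the WT lesion with the most Ccl17, the log2 fold change was -1.54 and the unadjusted p-value 0.088, and without WT replicate 2 they were -2.28 and 0.0273 (edgeR). The call was also lost without KO replicate 2 (-1.68, unadjusted p = 0.0664) and without KO replicate 3 (-1.83, unadjusted p = 0.079, edgeR).

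Ccl22, the other CCR4 ligand, was at 5.66, 14.05 and 3.63 CPM in WT and at 2.07, 0.755 and 2.17 CPM in KO lesions. The lowest WT value, of replicate 3, lay above the highest KO value. The means were 7.78 ± 5.52 CPM in WT and 1.66 ± 0.789 CPM in KO (SD, n = 3 each). The fitted level was 4.67-fold lower, with a log2 fold change of -2.22 ± 0.66 (SE, unadjusted p = 0.015, adjusted p = 0.321, edgeR). Without WT replicate 2 the log2 fold change was -1.48 with an unadjusted p-value of 0.0394 (edgeR). Counts of Ccl22 exceeded those of Ccl17 in every lesion, by a ratio of 454% to 2780% in WT and 578% to 1610% in KO, and the log2 of this ratio differed by 0.03 between the group means (exact two-sided permutation test, p = 1). The ratio includes the difference in exon length, 2325 bases for Ccl22 and 514 for Ccl17. Per kb of exon, Ccl22 was at 2.43, 6.04 and 1.56 CPM in WT and at 0.890, 0.325 and 0.932 CPM in KO lesions. Ccl17 was at 2.41, 0.964 and 1.16 CPM per kb in WT and at 0.683, 0.155 and 0.243 in KO lesions.

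The receptor Ccr4, through which both ligands act, was at 1.02, 3.47 and 0.641 CPM in WT and at 0.211, 0 and 0.333 CPM in KO lesions. The groups did not overlap, but the 95% exact counting intervals of WT replicate 3 (0.432 to 0.915 CPM) and KO replicate 3 (0.191 to 0.541 CPM) did. The 0 counts of KO replicate 2 allow up to 0.0596 CPM (3 counts). The means were 1.71 ± 1.53 CPM and 0.181 ± 0.169 CPM (SD, n = 3 each), with a log2 fold change of -3.22 ± 1.22 (SE, unadjusted p = 0.0379, adjusted p = 0.332, edgeR). Without WT replicate 2 the log2 fold change was -2.19 with an unadjusted p-value of 0.119, and the call was lost as well without WT replicate 1 (unadjusted p = 0.0554), KO replicate 1 (0.101) or KO replicate 3 (0.053, edgeR).

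Ccr8, a receptor of tissue regulatory T cells, had 12, 27 and 8 counts in WT and 0, 0 and 4 counts in KO lesions, or 0.256, 0.608 and 0.171 CPM against 0, 0 and 0.0834 CPM. Its 0 counts allow up to 0.0526 CPM in KO replicate 1 and 0.0596 CPM in KO replicate 2. The groups did not overlap, but the 95% exact counting intervals of WT replicates 1 and 3 (0.132 to 0.448 and 0.0738 to 0.337 CPM) overlapped with that of KO replicate 3 (0.0227 to 0.213 CPM). With no filter on low counts, the log2 fold change was -3.55 with an unadjusted p-value of 0.0338 and an adjusted p-value of 0.429 (edgeR). With the filter, and a single lesion left out, Ccr8 was tested without WT replicate 3 or any 1 KO lesion. It was not past the threshold without KO replicate 1 (-2.98, unadjusted p = 0.0738) or KO replicate 2 (-3.03, unadjusted p = 0.0686, edgeR). It was past it without WT replicate 3 (-3.915, unadjusted p = 0.0355) or KO replicate 3 (-7.09, unadjusted p = 0.00856, edgeR).

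Foxp3, the transcription factor that defines regulatory T cells, was at 1.15, 3.24 and 0.683 CPM in WT and at 0.175, 0.0397 and 0.625 CPM in KO lesions. The order of the groups rested on 32 counts in WT replicate 3 against 30 counts in KO replicate 3, whose 95% exact counting intervals of 0.467 to 0.965 and 0.422 to 0.892 CPM overlapped. The interval of KO replicate 3 also reached that of WT replicate 1 (0.866 to 1.5 CPM), and KO replicate 2 held 2 counts. The means were 1.69 ± 1.36 CPM and 0.28 ± 0.306 CPM (SD, n = 3 each), with a log2 fold change of -2.59 ± 1.04 (SE, unadjusted p = 0.047, adjusted p = 0.336, edgeR). The call was lost with 7 of 14 alternatives, among them upper quartile scaling (unadjusted p = 0.0513, edgeR) and leaving out WT replicate 2 (log2 fold change -1.71, unadjusted p = 0.151), WT replicate 1 (0.0666), KO replicate 1 (0.138) or KO replicate 2 (0.0828, edgeR). In the GENCODE M21 annotation, exons of Foxp3 overlap those of Ccdc22 and Ppp1r3f on the opposite strand and Flicr on the same strand, and the strand setting of the counting is not given in the sources used here.

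Il2ra, which encodes the interleukin-2 receptor chain of regulatory and activated T cells, was at 7.43, 11.8 and 3.37 CPM in WT and at 2.05, 1.35 and 4.08 CPM in KO lesions. KO replicate 3 lay above WT replicate 3, so the groups overlapped. The log2 fold change was -1.59 ± 0.60 (SE, unadjusted p = 0.0382, adjusted p = 0.332, edgeR), and without WT replicate 2 it was -1.11 with an unadjusted p-value of 0.12 (edgeR). The call was also lost without WT replicate 1 (unadjusted p = 0.0755), KO replicate 1 (0.114) or KO replicate 2 (0.0999, edgeR).

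Ikzf2, the gene of Helios, was at 17.6, 18.1 and 24.2 CPM in WT and at 19.4, 23.2 and 14.4 CPM in KO lesions. The groups overlapped throughout, with means of 20.0 ± 3.68 and 19.0 ± 4.39 CPM (SD, n = 3 each). The log2 fold change was -0.08 ± 0.23 (SE, adjusted p = 0.888, edgeR), and its sign turned with upper quartile scaling and without WT replicate 3, KO replicate 3 or both WT replicates 1 and 3. An antisense gene, Gm29114, overlaps its exons in GENCODE M21. Unlike the other members, Ikzf2 had its highest value in WT replicate 3 and its lowest in KO replicate 3.

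Il10 was at 1.2, 8.64 and 0.726 CPM in WT and at 0.316, 0.278 and 0.688 CPM in KO lesions. WT replicate 2 held most of the WT level, and WT replicate 3 and KO replicate 3 were separated by 34 against 33 counts, with 95% exact counting intervals of 0.503 to 1.01 and 0.473 to 0.966 CPM, the latter also reaching that of WT replicate 1 (0.903 to 1.55 CPM). The means were 3.52 ± 4.44 CPM and 0.427 ± 0.226 CPM (SD, n = 3 each). The log2 fold change was -3.04 ± 1.07 (SE, unadjusted p = 0.0299, adjusted p = 0.328, edgeR). Without WT replicate 2 it was -1.17 with an unadjusted p-value of 0.0888 (edgeR), so neither the size nor the call held without that lesion. Without KO replicate 1 (-2.86, unadjusted p = 0.0941) or KO replicate 2 (-2.81, unadjusted p = 0.0891, edgeR) the size held and the call did not.

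Il10ra, the ligand-binding chain of the interleukin-10 receptor, was at 25.1, 89.0 and 21.1 CPM in WT and at 13.3, 9.85 and 23.3 CPM in KO lesions. KO replicate 3 lay above WT replicate 3. The log2 fold change was -1.54 ± 0.65 (SE, unadjusted p = 0.0564, adjusted p = 0.344, edgeR), and -0.57 without WT replicate 2 (unadjusted p = 0.194, edgeR). It was past the threshold without WT replicate 1 (-1.83, unadjusted p = 0.0447) and without WT replicate 3 (-1.90, unadjusted p = 0.0331, edgeR).

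**Figure D3:**
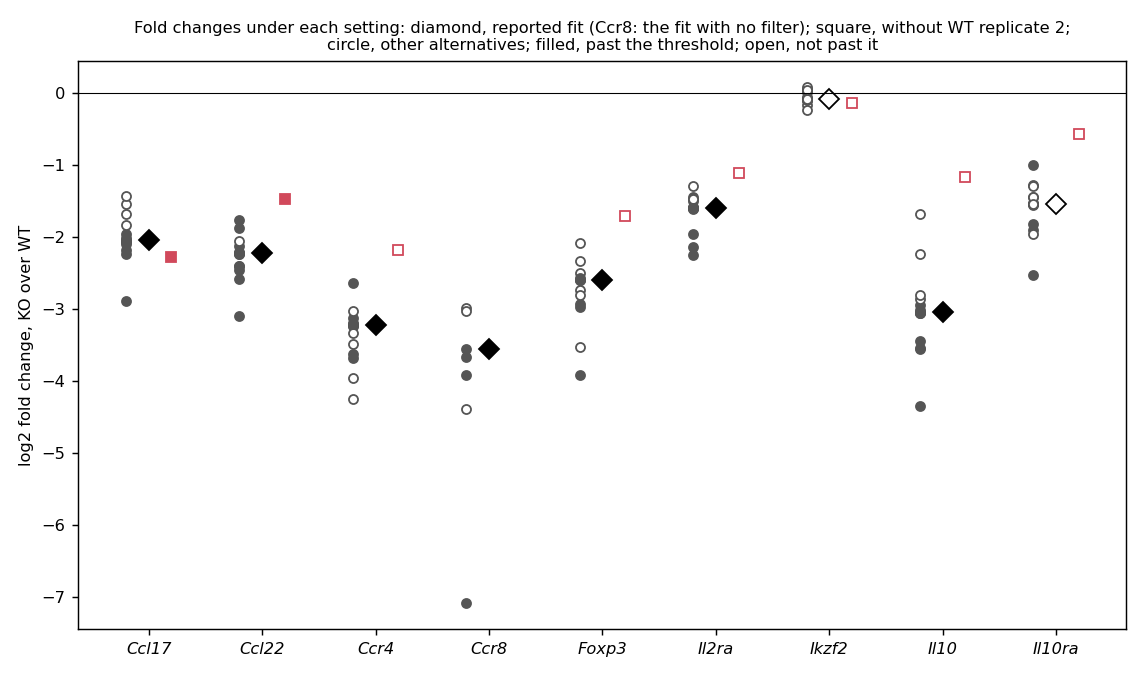
Log2 fold change (KO over WT) of each gene in the reported fit (diamonds; for Ccr8 the fit with no filter), without WT replicate 2 (red squares) and under the other alternatives (circles), filled where the unadjusted p-value was under 0.05 and the change beyond 1. Without WT replicate 2, Ccl17 (-2.28) and Ccl22 (-1.48) stayed past the threshold while Il10 moved from -3.04 to -1.17 and Il10ra from -1.54 to -0.57.

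Levels were also compared between genes after division by exon length. In WT lesions the mean levels in CPM per kb of exon were 12.9 for Il10ra, 3.35 for Ccl22, 2.69 for Il10, 1.72 for Ikzf2, 1.51 for Ccl17, 1.32 for Il2ra, 0.553 for Ccr4, 0.37 for Foxp3 and 0.294 for Ccr8. The ranges over the 3 WT lesions of each neighbouring pair in this order overlapped. In KO lesions Il10ra (4.43 CPM per kb) and Ikzf2 (1.63) were the highest and did not overlap with the genes below them, followed by Ccl22 (0.716), Il2ra (0.437), Ccl17 (0.36) and Il10 (0.326), whose ranges overlapped. Foxp3 (0.0612), Ccr4 (0.0586) and Ccr8 (0.0236) were the lowest, with a gap between Il10 and Foxp3.

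The question whether the ligands and Il10 were lower along with regulatory T cells was examined against the cell types in the lesion. In bulk tissue, fewer cells of a type and less RNA per cell cannot be told apart. The T-cell markers summed to 49.1, 130 and 51.3 CPM in WT and to 15.9, 10.5 and 35.4 CPM in KO lesions, without overlap with or without WT replicate 2. Of the 13 T-cell markers, 11 were past the threshold and lower, against 5.85% of all tested genes, and 12 did not overlap between the groups, against 8.74% of all tested genes. They include Cd3e (log2 fold change -1.89), Cd4 (-2.20) and Cd8a (-1.81). All 13 were highest in WT replicate 2, and without that lesion 4 of 13 were called lower (Trbc1, Cd2, Cd8a and Cd8b1), where 5.86% of all tested genes were. The count was also 4 without KO replicate 1 and without KO replicate 2, where 2.9% and 3.48% of all tested genes were called. The dendritic-cell markers summed to 125, 163 and 120 CPM in WT and to 87.2, 62.7 and 137 CPM in KO lesions, with Ccr7 (-1.96) and Cd83 (-1.24), genes of mature dendritic cells, past the threshold among 10, against 5.85% of all tested genes. Fscn1 (-0.68) and Itgax (0.12) were not. Cd83 stayed past the threshold with any single lesion left out. Ccr7 did not without WT replicate 2 or any 1 KO lesion. The count was 5 of 10 without KO replicate 3, where 8.66% of all tested genes were called lower. The macrophage markers summed to 1236, 2848 and 1233 CPM in WT and to 798, 582 and 1469 CPM in KO lesions, with 0 of 10 past the threshold or under an unadjusted p-value of 0.05 in edgeR's test. Of these 10, 9 had a log2 fold change below 0, with a median of -0.93. Without KO replicate 3, 7 of 10 were called lower, where 8.66% of all tested genes were. The count was 0 with any other single lesion left out. With limma voom it was 3 of 10, where 8.38% of all tested genes were called. The part of these cell types in the levels of the 9 genes was not tested beyond the ratios that follow.

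Foxp3 amounted to 10.2%, 9.47% and 6.17% of the summed counts of the T-cell receptor complex genes Cd3d, Cd3e and Cd3g in WT and to 4.6%, 2.15% and 6.62% in KO lesions. The groups overlapped at replicate 3, and the log2 ratio was lower in KO by a mean difference of -1.06 (exact two-sided permutation test, p = 0.2, where 0.1 is the smallest that 3 against 3 allows). The sign held with each lesion left out, from -1.42 to -0.61. Ratios of the other T-cell genes were computed after seeing the data. Il2ra amounted to 65%, 34.4% and 30.1% of the same denominator in WT and to 51.4%, 58.8% and 42.7% in KO lesions, a mean log2 difference of 0.31 (exact permutation test, p = 0.5). Ccr4 amounted to 9.04%, 10.1% and 5.79% in WT and to 5.47%, 0.429% and 3.58% in KO lesions, without overlap (exact permutation test, p = 0.1), where the value of KO replicate 2 rests on 0 counts and an added offset of 0.5. Ccr8 amounted to 2.33%, 1.8% and 1.61% in WT and to 0.219%, 0.429% and 0.977% in KO lesions, where the values of KO replicates 1 and 2 rest on 0 counts in the same way. Ctla4 amounted to 9.04%, 17.5% and 5.79% in WT and to 4.6%, 2.15% and 5.75% in KO lesions, and Icos to 37%, 40.5% and 32.8% in WT and to 10.7%, 14.2% and 24.9% in KO lesions. The groups did not overlap for Ccr8, Ctla4 or Icos (exact permutation tests, p = 0.1 each), although Ctla4 in WT replicate 3 and KO replicate 3 differed by little. Of these 6 genes, Foxp3 included, Il2ra was the one whose ratio was not lower in the KO mean. Ratios of further regulatory T-cell genes were not computed. Of those, Tnfrsf18 (log2 fold change -0.40), Tnfrsf4 (-1.46) and Ikzf2 (-0.08) changed less than Cd3d (-1.91), Cd3e (-1.89) and Cd3g (-1.77). Tigit (-2.81) and Batf (-2.31) changed more than these denominator genes.

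Ccl17 and Ccl22 together, a sum to which Ccl22 contributed most, amounted to 14.2%, 45% and 9.28% of the summed counts of Flt3, Zbtb46 and Itgax in WT and to 5.44%, 2.59% and 4.73% in KO lesions. The groups did not overlap, with a mean log2 difference of -2.16 (exact two-sided permutation test, p = 0.1). It was -1.5 without WT replicate 2 and -1.59 with all 10 dendritic-cell markers as the denominator. Taken alone, Ccl17 amounted to 2.56%, 1.57% and 1.33% of the 3 genes in WT and to 0.805%, 0.274% and 0.278% in KO lesions, without overlap, but relative to all 10 markers WT replicate 2 (0.31%) lay below KO replicate 1 (0.413%), with a mean log2 difference of -1.58 (exact permutation test, p = 0.2). Ccl22 alone did not overlap with either denominator (exact permutation tests, p = 0.1 each). These single-ligand ratios were computed after seeing the data. Itgax was lowest in WT replicate 2, at 705 counts against 1263 to 2074 in the other lesions, where it made up most of the denominator. In WT replicate 2, Flt3 had 242 and Zbtb46 490 counts.

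Il10 amounted to 0.336%, 0.838% and 0.196% of the summed counts of the macrophage genes Adgre1, Csf1r and Cd68 in WT and to 0.112%, 0.129% and 0.146% in KO lesions. The groups did not overlap, and the KO lesions spanned a narrow range, with a mean log2 difference of -1.57 (exact two-sided permutation test, p = 0.1). Without WT replicate 2 the difference was -1.003. Il10ra, computed after seeing the data, amounted to 7%, 8.62% and 5.62% of the same denominator in WT and to 4.6%, 4.41% and 4.87% in KO lesions, also without overlap (exact permutation test, p = 0.1). Ratios of this kind cancel scaling between libraries, and the exact test cannot fall below 0.1 for any of them.

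**Figure D4:**
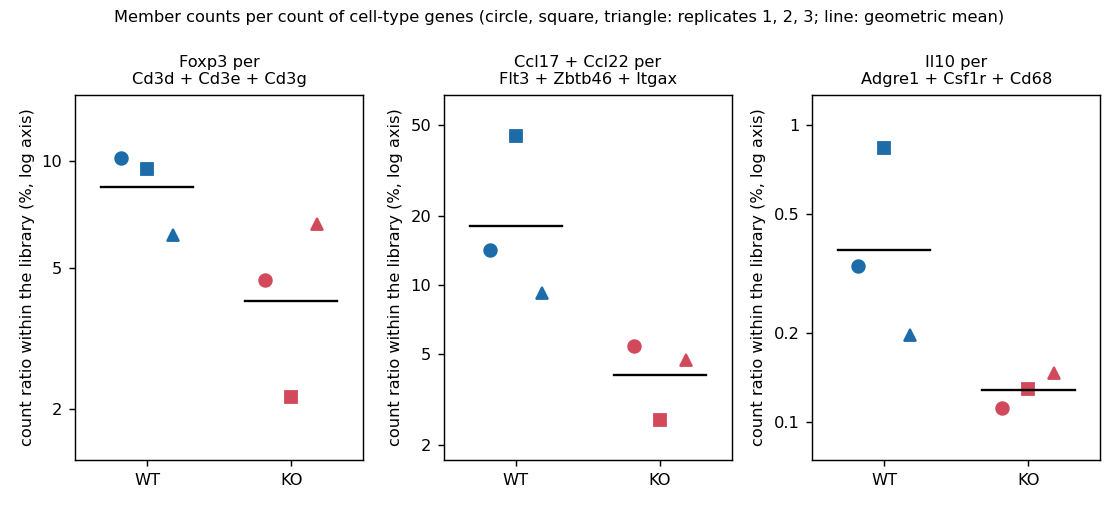
Counts of Foxp3, of Ccl17 with Ccl22 and of Il10 as a percentage of the counts of 3 genes of T cells, dendritic cells and macrophages in the same library (log axis), with the geometric mean of each group as a line. The ligand and Il10 ratios did not overlap between WT and KO, whereas the Foxp3 ratio of KO replicate 3 (6.62%) lay above that of WT replicate 3 (6.17%).

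Among 63 further genes of these pathways, 54 could be tested, of which 12 were past the threshold and lower and 2 higher, against 5.85% and 3.1% of all tested genes. In these lists 47 of 54 genes had a log2 fold change below 0, where 48.6% of all tested genes did, with a median of -0.83 against 0.01 over all genes. None had an adjusted p-value under 0.05 in edgeR's test (0.321 to 0.986), and in DESeq2's test 5 lower genes (Il33, Ctla4, Icos, Tigit and Socs3) and 2 higher genes (Gpr83 and Il20rb) did, where 3.9% and 1.56% of all genes with an adjusted p-value were lower and higher at that level. Without WT replicate 2 only Il33 and Tigit were past the threshold and lower, 3.64% of the listed genes tested against 5.86% of all genes. The count was also 2 without KO replicate 1 (Tigit and Il24, 3.64% against 2.9% of all genes) and without KO replicate 2 (Tigit and Il22ra1, 3.7% against 3.48%). In these 3 fits the share of listed genes called lower was thus near or below that of all genes. Tigit was lower past the threshold with any single lesion left out. Gpr83 and Il20rb were higher past the threshold with any single lesion left out. Tigit held 14, 6 and 8 counts in KO lesions, and Ctla4 10, 2 and 26, so both entered the test through the WT lesions. Gpr83 held 4, 2 and 12 counts in WT lesions and entered through the KO lesions. With at least 10 counts required in every library, none of these 3 genes was tested.

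Of the 21 genes of the regulatory T-cell programme, all tested, 6 were lower and 1 higher past the threshold, against 5.85% and 3.1% of all tested genes, with a median log2 fold change of -0.85. Of the 21 genes, 15 were highest in WT replicate 2, and Tigit was the 1 gene still called lower without that lesion, without KO replicate 1 or without KO replicate 2. Ctla4, the inhibitory receptor through which regulatory T cells act on antigen-presenting cells, was at 1.02, 5.99 and 0.641 CPM in WT and at 0.175, 0.0397 and 0.542 CPM in KO lesions (log2 fold change -3.33 ± 1.23, SE). The co-stimulatory receptor Icos was at 4.23, 13.9 and 3.67 CPM in WT and at 0.421, 0.318 and 2.38 CPM in KO lesions (-2.81 ± 0.99). The inhibitory receptor Tigit was at 0.641, 2.68 and 0.47 CPM in WT and at 0.246, 0.119 and 0.167 CPM in KO lesions (-2.81 ± 0.80). These 3 receptors did not overlap between the groups, and neither did Tnfrsf9 (-1.45 ± 0.54) or the transcription factor Batf (-2.31 ± 0.93). With Prdm1, which was not past the threshold, 6 of the 21 genes showed no overlap with WT higher, against 8.74% of all tested genes. Ebi3 (-2.55 ± 1.00), a subunit of interleukins 27 and 35, was past the threshold but did overlap.

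Gpr83, a receptor that regulatory T cells express and that is also known from brain, was the member of this list that was higher. It was at 0.0854, 0.045 and 0.256 CPM in WT and at 4.21, 1.79 and 0.75 CPM in KO lesions, without overlap, as 10.7% of all tested genes were in this direction, with a log2 fold change of 4.09 ± 0.92 (SE, unadjusted p = 0.00435, adjusted p = 0.321, edgeR). Among KO lesions it was highest in replicate 1 and lowest in replicate 3, which had the most Foxp3 of the KO lesions. The genes of the list with the highest levels, Entpd1 (log2 fold change -0.87 ± 0.49), Nrp1 (0.18 ± 0.37) and Itgb8 (-0.30 ± 0.36), were not past the threshold.

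Of the other CCR4 and CCR8 genes, Ackr2, a decoy receptor that removes inflammatory CC chemokines, was at 4.95, 7.61 and 4.29 CPM in WT and at 1.58, 1.01 and 3.58 CPM in KO lesions, without overlap (-1.45 ± 0.53, unadjusted p = 0.0343, adjusted p = 0.332, edgeR). It was the 1 of 3 tested genes called lower, against 5.85% of all tested genes. Its call was lost without WT replicate 1, WT replicate 2, KO replicate 1 or KO replicate 2. Ccl8, a ligand of CCR8 in the mouse (-0.83 ± 0.57), and Dpp4, a peptidase that trims CCL22 (-0.05 ± 0.39), were not past the threshold. Ccl1, the other CCR8 ligand, had 12, 6 and 0 counts in WT and 0 in each KO lesion and was not tested. Among 12 type 2 cytokine genes, of which 10 were tested, Il33, an alarmin that acts on regulatory and type 2 lymphocytes, was past the threshold, at 14.7, 96.2 and 33.7 CPM in WT and at 10.5, 12.3 and 13.0 CPM in KO lesions (-2.01 ± 0.67, unadjusted p = 0.0235, adjusted p = 0.328, edgeR). It was the 1 of these 10 called lower, against 5.85% of all tested genes. Its call held without any 1 WT lesion and was lost without any 1 KO lesion. Il4 and Il13, the cytokines that induce both ligands, had 0 to 12 counts per lesion and were not tested, and Il4ra (-0.54 ± 0.28), Stat6 (-0.29 ± 0.27) and Il13ra1 (-0.40 ± 0.21) were not past the threshold.

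In the interleukin-2 axis, 1 of 6 tested genes was lower past the threshold, against 5.85% of all tested genes. This was Il2rb, the shared receptor chain of interleukins 2 and 15, at 5.29, 19.5 and 4.78 CPM in WT and at 3.31, 1.87 and 3.00 CPM in KO lesions (-1.85 ± 0.63). Its call was lost without WT replicate 2 or any 1 KO lesion. The signalling genes Stat5a (0.87 ± 0.34), Stat5b (0.02 ± 0.20) and Cish (0.31 ± 0.21) were not past the threshold, and Il2 itself had 2 to 12 counts per lesion. Exons of Stat5a and Stat3 overlap on opposite strands in GENCODE M21. In interleukin-10 signalling, Socs3, a feedback inhibitor induced through STAT3, was at 75.0, 383 and 48.4 CPM in WT and at 27.3, 20.9 and 44.5 CPM in KO lesions (-2.45 ± 0.85). Il1rn, the interleukin-1 receptor antagonist, was at 54.2, 1084 and 70.6 CPM in WT and at 16.4, 7.59 and 41.1 CPM in KO lesions (-4.21 ± 1.44). Both did not overlap between the groups. In this list, 3 of 11 tested genes showed no overlap with WT higher, against 8.74% of all tested genes. Socs3 and Il1rn were highest by far in WT replicate 2, while Jak1 (-0.29 ± 0.29), Stat3 (-0.13 ± 0.19) and Maf (-0.43 ± 0.32) were not past the threshold. The calls of Socs3 and Il1rn were lost without WT replicate 2, KO replicate 1 or KO replicate 2. Il10rb, named after its values were seen because it pairs with IL10RA, had 2 to 71 counts per lesion, and its exons share a strand with the gene Gm21970 in GENCODE M21, so its count is uncertain.

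In the interleukin-10 family, 3 of 8 genes were tested, of which 1 was lower and 1 higher past the threshold, against 5.85% and 3.1% of all tested genes. Il24 was lower past the threshold, at 0.982, 3.2 and 3.72 CPM in WT and at 1.3, 0.556 and 0.375 CPM in KO lesions (-1.82 ± 0.69), with overlap. Its call was lost without WT replicate 2, WT replicate 3, KO replicate 2 or KO replicate 3. Il20rb, a receptor chain for interleukins 19, 20 and 24, was higher, at 11.3, 4.73 and 4.46 CPM in WT and at 45.7, 64.4 and 12.0 CPM in KO lesions, without overlap (2.57 ± 0.71, unadjusted p = 0.0107, adjusted p = 0.321, edgeR). Il22ra1 (-1.01 ± 0.93) was not past the threshold.

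**Figure D5:**
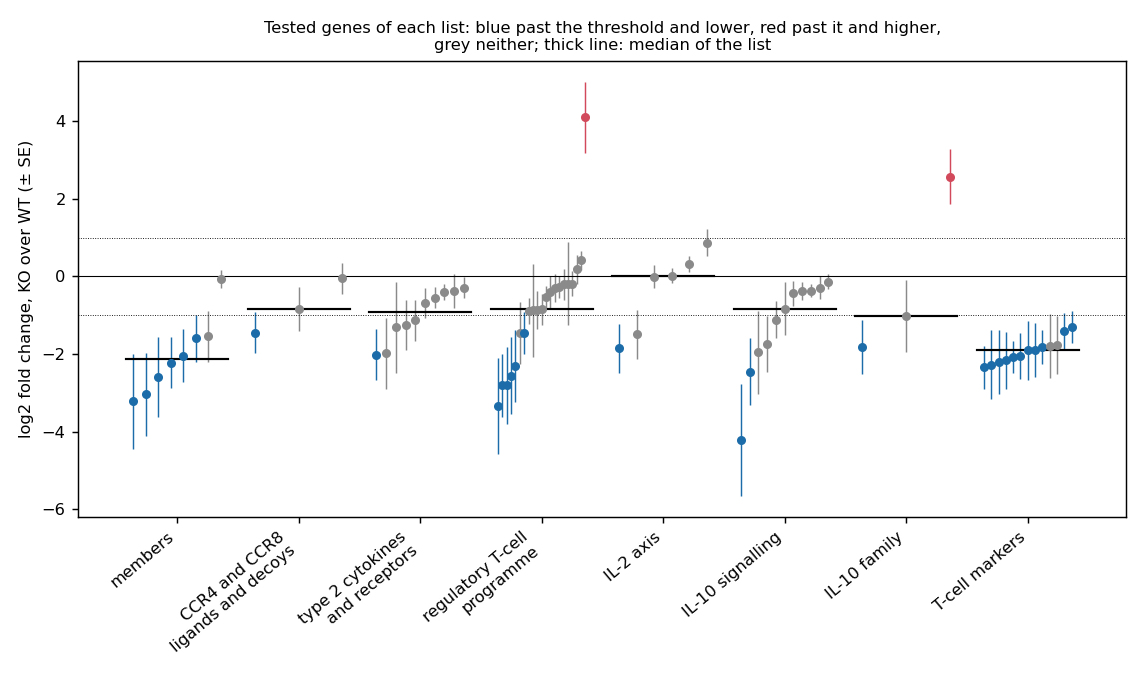
Log2 fold change (KO over WT, ± SE) of each tested gene of the 9 members, of the 6 pathway lists and of the T-cell markers, blue where lower and red where higher past the threshold, with dotted lines at 1 and -1 and a thick line at the median of each list. The T-cell markers lay between -2.35 and -1.30, and Gpr83 (4.09) and Il20rb (2.57) stood above all the others shown.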

How the data were processed

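RNA of 3 WT and 3 KO ectopic lesions was sequenced with a stranded mRNA library kit, 1 library a lesion. The deposited values are raw counts per gene, as whole numbers, which the authors made by trimming with Trimmomatic and counting with featureCounts. The submitters' processing notes name GRCm39 and the paper GRCm38, and the aligner is not given in the sources used here. Of 56884 gene IDs, 51948 were matched to a symbol without their version, and IDs without a match held 3.04% to 3.56% of the counts. Exon lengths came from GENCODE M21 on GRCm38, whose gene models can differ from those counted.

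Differences were tested in R 4.3.3 by edgeR 4.0.16, after filterByExpr (18177 genes left) and TMM scaling, in a quasi-likelihood fit with genotype as the only term, which was also tested on simulated data. Each SE is the absolute log2 fold change over the root of its F statistic. In a list of several genes, values after ± are SE. Groups came from the sample titles. The labels do not name the animals of each library, so p-values measure the spread between these samples. Counting intervals are exact Clopper-Pearson at 95%, the level that 0 counts allow is 3 counts, and both cover counting error only. Both take each count as independent, so the intervals are too narrow and the level too low where a fragment was counted more than once.

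The 9 genes and the other lists were chosen with earlier results of these data known. The text names the 9 genes and Dnmt3a, the genes of each of 6 pathway lists past the threshold and up to 3 more by mean CPM, the denominators of 3 ratios, and the 5 genes most like Ccl22, Foxp3 and Il10. Ratios are log2 of counts plus 0.5. Alternatives were DESeq2 size factors, upper quartile scaling, no filter, a minimum of 10 counts in each library, DESeq2 1.42.0, voom with quality weights (limma 3.58.1), a block for the replicate number, each lesion left out and, for ratios, another offset or the whole marker list. Chosen after seeing the data were counts divided by 2 and leaving out WT replicates 1 and 3.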

Additional observations from a re-analysis of the deposited data

How the results depend on the processing

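Of the 9 genes, the number past the threshold and lower was 6 and moved by more than 1.5 times under some alternatives. It was 3 with at least 10 counts in every library, where 5 of the 9 genes could be tested and 5.17% of all genes were called lower, and 1 (Ccl17) with the replicate block, where 3.15% were. It ran from 2 to 8 with each lesion left out, and the number higher was 0 throughout. The number of listed pathway genes lower, 12, was 2 with the replicate block (Il33 and Tigit, 3.7% of those tested against 3.15% of all genes), ran from 2 to 16 with each lesion left out, and was 22 without WT replicates 1 and 3 (38.6% against 8.04% of all genes), an alternative chosen after seeing the data that leaves 1 WT lesion, assumed to vary like the KO lesions. The number of listed genes higher, 2, was 1 with at least 10 counts in every library, 1 without WT replicates 1 and 3, and ran from 2 to 3 with each lesion left out. The causes were not tested, apart from the smaller number of genes or lesions in these fits. Same-numbered WT and KO lesions did not deviate together (correlations of 0.03, -0.15 and -0.20 over all genes), so the numbers were not taken to pair the lesions. The log2 fold change of Ikzf2 was 0.021 with upper quartile scaling and 0.041 without WT replicates 1 and 3, ran from -0.24 (without KO replicate 2) to 0.089 (without KO replicate 3) with each lesion left out, being 0.06 without WT replicate 3, and no other member changed its sign under any alternative. With upper quartile scaling the median over all genes was 0.11, against 0.01. The differences in the 3 ratios kept their sign under all alternatives run, from -1.42 to -0.61 for Foxp3, from -2.64 to -1.5 for the ligands and from -2.05 to -1.003 for Il10. Counts divided by 2, which allows for the even counts, gave 6 and 12 lower genes as before.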

Other observations

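The genes whose levels were most like those of Foxp3 over the 6 lesions, among 15046 named genes with a mean of at least 1 CPM, were the T-cell receptor zeta chain Cd247 (Pearson r = 0.999), Rnaseh2c (0.999), Creb5 (0.998), Lgals9 (0.995) and Zfpm1 (0.995). Those most like Ccl22 were Lat (0.996), an adaptor of the T-cell receptor, Bmx (0.996), Camta2 (0.995), Psmb8 (0.994) and Med13l (0.991). Those most like Il10 were Spib (0.999), Csrnp1 (0.998), Socs3 (0.998), Sp100 (0.998) and H2-T23 (0.998), and all 5 had their highest level in WT replicate 2, as Il10 did. These correlations describe 6 lesions in 2 groups, and the highest of so many genes are high by selection.

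Between Ccl22 and Ccl17 in RefSeq's gene order on GRCm38.p6 lies Cx3cl1, which encodes the chemokine fractalkine and was looked up after the values of its neighbours were seen. It was at 75.9, 43.3 and 87.9 CPM in WT and at 90.1, 82.4 and 56.2 CPM in KO lesions, a log2 fold change of 0.14 ± 0.31 (SE, adjusted p = 0.84, edgeR's quasi-likelihood test). WT replicate 2, the highest lesion for Ccl22, was the lowest for Cx3cl1.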
